A study of Danio rerio with 6 samples.

Results

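MicroRNAs (miRNAs) of leucocytes, erythrocytes and vessels were followed in small RNA libraries of the adult zebrafish telencephalon. This is the front part of the forebrain, whose neurons regenerate after injury. The loci were listed by identifier for the cell types their miRNAs are known from, with earlier results of these data already known, and they make up 5 of the 434 miRNA loci counted. They are mir-142a (ENSDARG00000082167) and mir-142b (ENSDARG00000082467), both carrying the symbol MIR142, as loci of leucocytes; MIR144 (ENSDARG00000081589) and MIR451A (ENSDARG00000082898) as loci of erythrocytes; and MIR126 (ENSDARG00000098981) as a locus of vessels. The control group held 3 libraries of hemispheres labelled healthy and without treatment, and the injured group held 3 libraries of hemispheres into which a syringe needle had been inserted. RNA was taken 5 days after the lesion, and each hemisphere was processed separately. Strain, age and sex of the fish, and whether blood was flushed from the vessels before dissection, are not stated in the labels or methods. The labels call the control hemispheres healthy. The study, however, lesioned a single hemisphere per brain and took the uninjured one opposite as control for its mRNA libraries, and it describes the RNA preparation for small RNAs as identical, so the controls may come from injured fish. Nothing in the labels ties a library to a single fish, so p-values measure the spread between these libraries.

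The miRNAs are short RNAs that guide Argonaute proteins to matching messenger RNAs and lower their translation or stability. The miR-142 family is a hallmark of blood cells, and its loci are active in leucocytes of most kinds, microglia included. miR-144 and miR-451 are made from a shared primary transcript in red blood cells under the control of GATA1, and miR-451 is known from zebrafish and mouse for being cut by Argonaute 2 in place of Dicer. miR-126 is the best known miRNA of endothelial cells, the inner lining of vessels, where it shapes the response to vascular growth factors, and it is known in vertebrates as a miRNA embedded in the gene egfl7. In the RefSeq annotation of the assembly GRCz12tu, mir144 and mir451a were neighbours on the same chromosome with 0 genes between them. In the same annotation mir142a and mir142b lay on different chromosomes. There mir126b lay inside egfl7, while no protein-coding gene was found to contain mir126a. Whether the locus MIR126 is mir126b was not settled by the sources used here. These miRNAs were measured in whole hemispheres, so more cells of a type and more RNA per cell cannot be told apart. For the miR-142 loci, leucocytes of the blood and microglia cannot be told apart either.

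The control libraries held between 2475462 and 4008607 reads at miRNA loci, and the injured libraries between 11473850 and 14545864. Depth thus differed between the groups in the same sense in each library, the shallowest injured library having 2.86 times the reads of the deepest control. All 5 loci had reads in each library, the fewest being 405, and all 5 were among the 188 loci that passed the limit for testing. Levels are given as RPM, reads per 1000000 reads at miRNA loci. Inserts of about the same length were counted, so RPM needs no correction for length, although the efficiency of cloning can differ between sequences. The labelled tissue was checked with a list of 19 loci of neuronal miRNAs (miR-9, miR-124, miR-128, miR-132 and miR-138), which together took between 224215 and 248805 RPM in each library. The largest parts of this sum came from dre-mir-132-2 and mir9-4, which averaged 133847 and 80475 RPM in control libraries. The most abundant miR-124 locus, mir124-1, averaged only 18.5 RPM there, so the sum does not speak for each family. The study describes miR-9 as expressed in neural stem cells. Of the 19 loci, 18 could be tested and 1, mir128-1, was called lower. A list of 7 muscle loci reached between 2.67 and 4.53 RPM, and its 1 tested locus was not called.

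Together the 5 loci took 4441 ± 883 RPM in control and 6737 ± 993 RPM in injured libraries (SD, n = 3 each). The rarest of the 5 by mean level, MIR144, stood at rank 82 of 434 loci and the most abundant, mir-142a, at rank 40. In the control libraries the order of mean levels was MIR451A, mir-142a, MIR126, mir-142b and MIR144. The ranges of MIR451A and mir-142a overlapped there, and so did those of MIR126, mir-142b and MIR144. In the injured libraries the order was mir-142a, MIR451A, mir-142b, MIR126 and MIR144. MIR451A had more reads than mir-142a in 3 of 3 control libraries, and mir-142a had more reads than MIR451A in 3 of 3 injured libraries. In injured 1 the counts were close, with 29637 reads of mir-142a and 28875 of MIR451A.

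**Figure D1:**
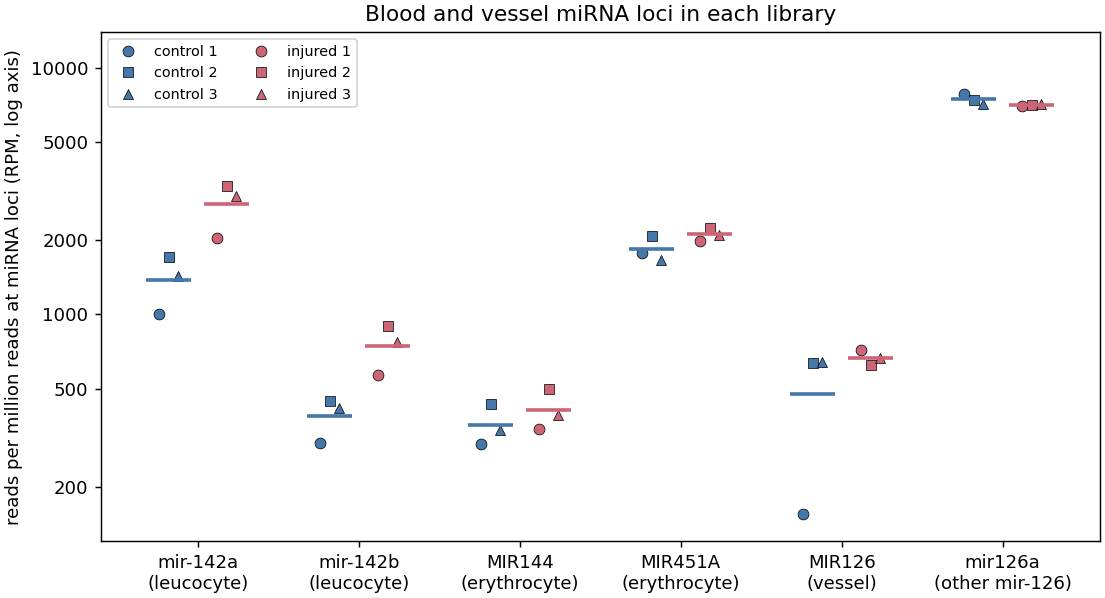
Level of each locus in each of the 6 libraries, in RPM on a log axis, with control libraries in blue, injured libraries in red and a bar at the mean of each group. The mir-142a and mir-142b points of the injured libraries all lie above those of the controls, the MIR144 and MIR451A groups overlap, and control 1 lies apart for MIR126 at 154 RPM but not for mir126a.

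The first comparison asked whether miRNAs of leucocytes differ between injured and control hemispheres. Both miR-142 loci were higher in injured hemispheres, by close to the same factor. Their mature sequences were not compared here, and whether reads of one can be counted at the other was not tested. Both results may therefore reflect a single signal. mir-142a had 1007, 1710 and 1428 RPM in control 1, 2 and 3, and 2037, 3326 and 3028 RPM in injured 1, 2 and 3. The lowest injured library was 1.19 times the highest control, so the groups did not overlap. The means were 1381 ± 354 and 2797 ± 675 RPM (SD, n = 3 each). The log2 fold change of mir-142a was 0.99 (SE 0.24; edgeR adjusted p = 0.0382), which is 1.98-fold.

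mir-142b, the rarer locus of the pair, had 299.6, 447 and 416 RPM in the controls. It had 568, 896 and 776 RPM in the injured libraries, again all above the controls, the lowest being 1.27 times the highest control. The means were 387 ± 77.5 and 747 ± 166 RPM (SD, n = 3 each). Its log2 fold change was 0.91 (SE 0.21; edgeR adjusted p = 0.0328), which is 1.88-fold. Of the 188 tested loci, 24 were called changed (12.8%) and 20 were called higher (10.6%), at an edgeR adjusted p below 0.05. Groups with the injured libraries all above the controls were found at 32 loci (17%). Of the 5 loci followed here, 2 were called, both higher, and the same 2 had groups that did not overlap. In the order of increases mir-142a took rank 10 and mir-142b rank 11 of 188.

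Both calls lay close to the threshold of 0.05. They were lost by limma-voom (adjusted p = 0.0569 for mir-142a and 0.0504 for mir-142b), with all libraries thinned to equal depth (adjusted p = 0.0523 and 0.0518), and under Bonferroni adjustment. They were also lost without control 1, control 2, control 3, injured 2 or injured 3, where the log2 fold change ran from 0.81 to 1.12 for mir-142a and from 0.76 to 0.98 for mir-142b. DESeq2 kept both at a lower adjusted p (0.000229 and 0.000171). So did edgeR with the replicate number as a block (adjusted p = 0.0014 and 0.00205), although no label says that the numbers pair the libraries. The study's methods name DESeq2 with Bonferroni adjustment for mRNA and refer to that description for miRNAs. DESeq2 with Bonferroni adjustment was not run here.

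The other leucocyte miRNAs listed for this comparison were MIR223, a miRNA of granulocytes, mir150, a miRNA of lymphocytes, and mir155, which activated leucocytes express. The list was chosen with earlier results of these data known. No library held a read of MIR223 or mir150. A count of 0 leaves room for 3 reads, which is 1.21 RPM in the library of lowest depth and 0.206 RPM in the deepest. The mapping quality limit drops reads that fit several places, and its part in these zeros was not tested. mir155 rose from a mean of 35.0 to 105 RPM (log2 fold change 1.54; SE 0.24; adjusted p = 0.00816 by edgeR). Of the 3 loci, 1 could be tested and was called higher. The study had already reported miR-155 as increased in these data, so this call is no independent support for the miR-142 loci.

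**Figure D2:**
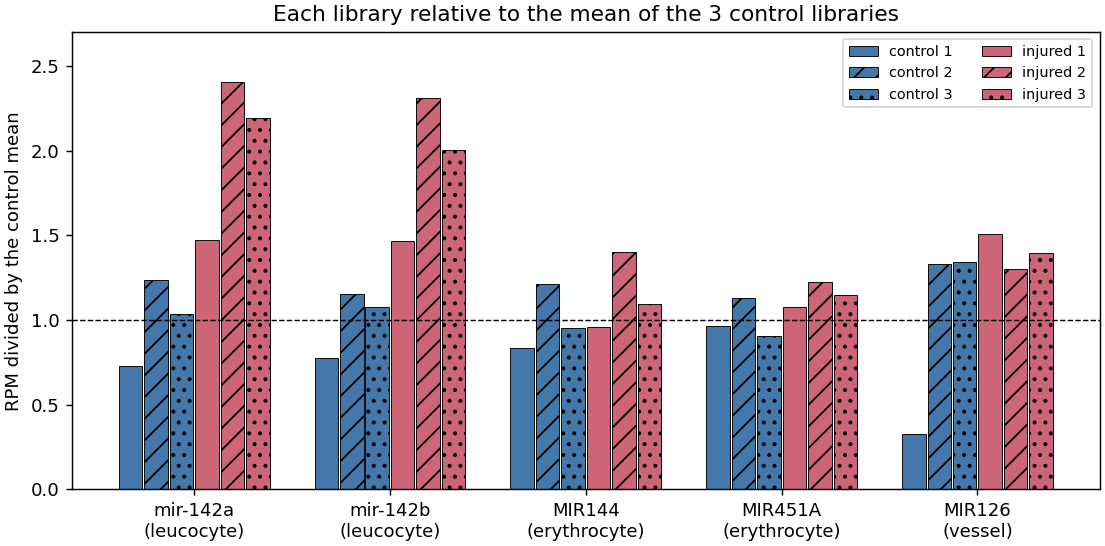
RPM of each library divided by the mean of the 3 control libraries, for the 5 loci, with the dashed line at the control mean. For mir-142a and mir-142b the bars of injured 2 reach 2.41 and 2.31, while for MIR451A no bar exceeds 1.23, and the control 1 bar of MIR126 stands at 0.323.

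The second comparison asked whether miRNAs of red blood cells differ in the same way. Erythrocytes reach the brain in the blood of its vessels. No difference beyond the spread between libraries was detected for either erythrocyte locus. MIR451A had 1776, 2075 and 1668 RPM in the controls and 1985, 2254 and 2107 RPM in the injured libraries. The groups overlapped, since injured 1 lay below control 2. The means were 1840 ± 211 and 2115 ± 135 RPM (SD, n = 3 each), and the log2 fold change was 0.17 (SE 0.10; edgeR adjusted p = 0.422).

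MIR144 was less abundant, with 297, 432 and 339 RPM in the controls and 341, 499.7 and 389 RPM in the injured libraries. Injured 1 and injured 3 lay within the range of the controls. The means were 356 ± 68.8 and 410 ± 81.3 RPM (SD, n = 3 each), and the log2 fold change was 0.17 (SE 0.18; edgeR adjusted p = 0.711). The value depended on single libraries and was 0.0069 without injured 2, 0.061 without control 1, 0.29 without control 2 and 0.30 without injured 1. The log2 fold changes of the 5 loci were all above 0, with a median of 0.45. Over all tested loci the median was 0.03, and 101 of 188 were above 0. The median of the 5 is the value of MIR126, whose log2 fold change was 0.03 without control 1. The 5 values are not independent, since both miR-142 loci may give a single signal and miR-144 and miR-451 share a primary transcript.

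The 4 leucocyte and erythrocyte loci were highest in the same libraries. mir-142a, mir-142b, MIR144 and MIR451A each had their highest control value in control 2 and their highest injured value in injured 2. This held for 38 of the 188 tested loci (20.2%). Loci of the same source may share a signal, so the 4 do not count as 4 separate observations. In the injured group all 4 were lowest in injured 1, and in the control group 3 of them were lowest in control 1 and MIR451A in control 3. The share of all tested loci that were lowest in these libraries was not counted. MIR126 had its highest values in control 3 and injured 1 and its lowest in control 1 and injured 2. No source used here says that libraries of the same number come from the same fish.

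The third comparison concerned MIR126, the vessel locus. It had 154, 636 and 641 RPM in control 1, 2 and 3 and 718, 620 and 666 RPM in the injured libraries. Control 1 therefore stood apart, and the other 2 controls lay within the range of the injured libraries. The 405 reads behind the value of control 1 gave a 95% exact Poisson interval of 139.5 to 169.97 RPM, which covers counting error only and lies below the interval of control 2, 611 to 661 RPM. The means were 477 ± 279.7 and 668 ± 48.9 RPM (SD, n = 3 each). The log2 fold change was 0.45 (SE 0.46; edgeR adjusted p = 0.701) and became 0.03 (SE 0.10; edgeR adjusted p = 0.938) without control 1.

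The low value of MIR126 in control 1 was not seen at the second mir-126 locus. mir126a (ENSDARG00000081476), which is more abundant, had 7825, 7462 and 7149 RPM in the controls and 7024, 7116 and 7153 RPM in the injured libraries. It was highest in control 1, the library in which MIR126 was lowest. Its log2 fold change was −0.11 (SE 0.07; edgeR adjusted p = 0.403). Whether reads of either mir-126 locus can be counted at the other was not tested. MIR126 in control 1 was 0.248 times its lowest value in the other 5 libraries, the smallest such ratio of the 188 tested loci. The next smallest, 0.471, belonged to MIR208A, which had 1 read in control 1. Of the vessel wall miRNAs, MIR143 had 0 reads in each library and MIR145 had 1 read in injured 3 alone, so smooth muscle of vessels could not be followed with these loci.

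Ratios within a library do not depend on its depth or on scaling, and 6 of them were compared between groups with two-sided exact permutation tests. With 3 against 3 libraries the smallest p possible is 0.1, so no ratio could pass 0.05. The ratio of leucocyte reads (both miR-142 loci) to erythrocyte reads (MIR144 and MIR451A) was 0.630, 0.860 and 0.919 in the controls and 1.12, 1.53 and 1.52 in the injured libraries. Erythrocyte reads outnumbered leucocyte reads in 3 of 3 controls, and leucocyte reads outnumbered erythrocyte reads in 3 of 3 injured libraries. Which source had more reads also depends on the efficiency of cloning and on the loci summed. The ratio uses the same counts as the fold changes above, so it is no independent result. The mean log2 ratio went from −0.34 to 0.46, a difference of 0.80 or 1.74-fold (exact permutation p = 0.1, the smallest possible; 0.6 adjusted over the 6 ratios). The SD of the log2 ratio was 0.29 in control and 0.26 in injured libraries (n = 3 each). The difference ran from 0.63 to 0.95 when single libraries were left out.

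The ratios to the vessel locus did not separate the groups. The ratio of leucocyte to vessel reads was 8.47, 3.39 and 2.87 in the controls and 3.63, 6.80 and 5.71 in the injured libraries, a log2 difference of 0.26 (exact permutation p = 0.7; 0.84 adjusted over the 6 ratios). Control 1 had the highest ratio of all libraries, and without it the difference was 0.74. The ratio of erythrocyte to vessel reads was 13.4, 3.94 and 3.13 in the controls and 3.24, 4.44 and 3.75 in the injured libraries, a log2 difference of −0.54 (exact permutation p = 0.7; 0.84 adjusted over the 6 ratios). Without control 1 this difference was 0.11.

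With reads of MIR126 and mir126a summed as the vessel source, the low value of control 1 had little weight. The leucocyte to vessel ratio was then 0.164, 0.266 and 0.237 in the controls and 0.337, 0.546 and 0.487 in the injured libraries, with no overlap and a log2 difference of 1.04 (exact permutation p = 0.1, the smallest possible). The erythrocyte to vessel ratio was 0.260, 0.309 and 0.258 in the controls and 0.300, 0.356 and 0.319 in the injured libraries. These overlapped, with a log2 difference of 0.24 (exact permutation p = 0.2). Both ratios reuse the counts behind the fold changes above, mir126a held most of the summed vessel reads, and these p-values were not adjusted.

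Of the ratios within a cell source, that of the mir-126 pair varied most among controls, where control 1 stood apart (SD of the log2 ratio 1.24). Among injured libraries its SD was 0.12, below the 0.19 of the erythrocyte pair and above the 0.061 of the leucocyte pair. The ratio of mir-142a to mir-142b lay between 3.36 and 3.90 over the 6 libraries, with a log2 difference between groups of 0.079 (exact permutation p = 0.3; 0.6 adjusted over the 6 ratios). The SD of this log2 ratio was 0.10 in control and 0.061 in injured libraries (n = 3 each). The ratio of MIR144 to MIR451A was 0.167, 0.208 and 0.203 in the controls and 0.172, 0.222 and 0.185 in the injured libraries. Its log2 difference was −0.0020 (exact permutation p = 1.0), with SDs of 0.17 and 0.19, so the pair varied more between libraries of a group than between groups. The ratio of MIR126 to mir126a was 0.0197, 0.0852 and 0.0897 in the controls and 0.102, 0.0872 and 0.0931 in the injured libraries (log2 difference 0.82; exact permutation p = 0.2; 0.6 adjusted over the 6 ratios), and without control 1 the difference was 0.10.

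**Figure D3:**
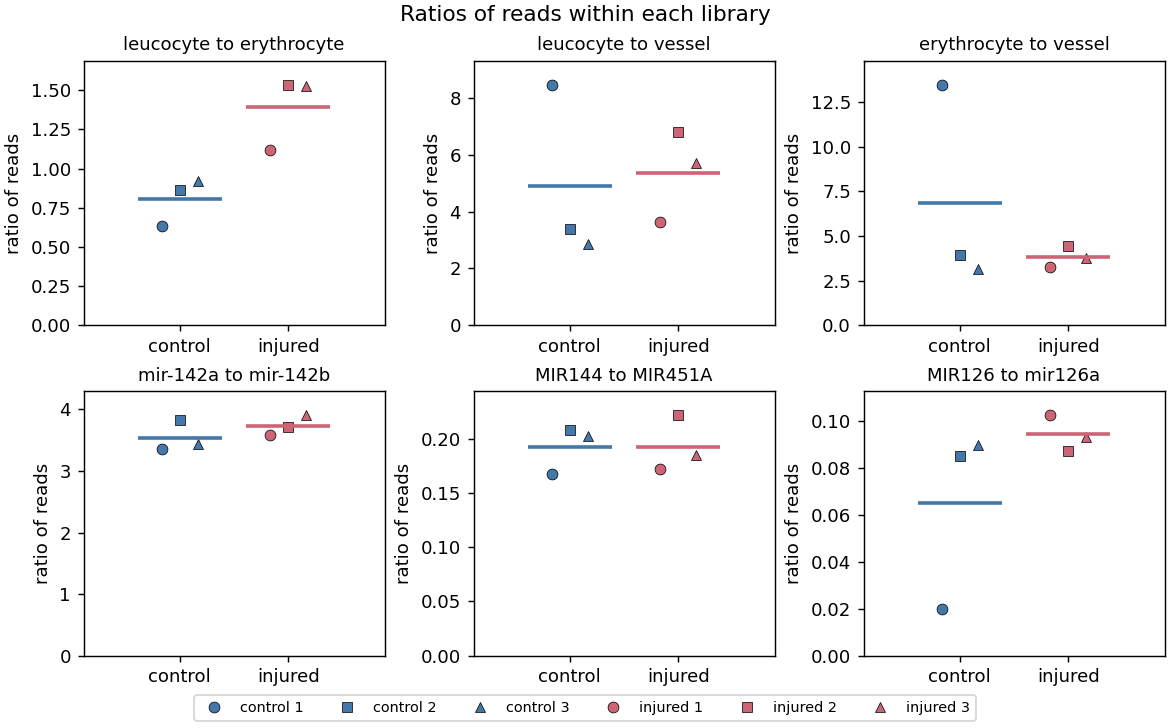
The 6 ratios of reads within each library, on linear axes from 0, with control libraries in blue, injured libraries in red and a bar at the group mean. The injured points lie above the controls only for leucocyte to erythrocyte reads (1.12 to 1.53 against 0.630 to 0.919), and control 1 stands apart in each ratio that holds MIR126.

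Likeness of pattern was described by the root mean square difference between log2 RPM profiles over the 6 libraries, each profile centred on its own mean. The difference between groups stays in these profiles. Loci close to the miR-142 loci must therefore rise by about as much, and their rise is no further result. The locus most like mir-142a was mir-142b, at 0.079, against a median of 0.586 over all other tested loci. Next came dre-mir-462 (ENSDARG00000082377) at 0.091 and dre-mir-731 (ENSDARG00000080568) at 0.102, both also called higher in injured hemispheres. The same 2 loci followed for mir-142b, at 0.080 and 0.094. MIR451A and MIR144 differed from each other by 0.147. The loci closest to MIR451A were mir2188 (0.068), mir301c (0.073) and MIR99A (ENSDARG00000081501; 0.081), and those closest to MIR144 were the same MIR99A locus (0.117), mir193b (0.120) and mir2188 (0.134). No locus came as near to MIR126, the closest being MIR3074 at 0.357, which had 10 reads in control 1. These values describe the libraries and carry no test.

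**Figure D4:**
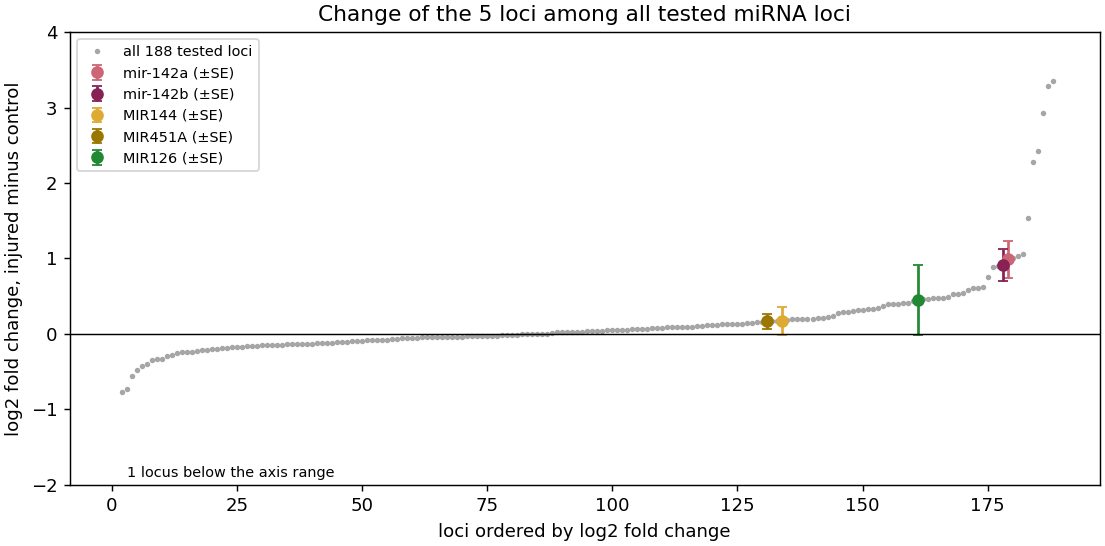
Log2 fold change of injured against control libraries for the 188 tested loci in ascending order (grey), with the 5 loci in colour and bars of ± SE from edgeR. mir-142a (0.99) and mir-142b (0.91) lie at the upper end, MIR144 and MIR451A lie at 0.17, and MIR126 has the widest bar (SE 0.46).

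Across the 15 other settings tried, the log2 fold changes of all 5 loci stayed above 0. mir-142a and mir-142b were each called in 7 of the 15, and MIR144, MIR451A and MIR126 in 0 of the 15, their lowest adjusted p being 0.207, 0.234 and 0.480 (edgeR with the replicate number as a block for MIR144 and MIR451A, limma-voom for MIR126). Unadjusted edgeR p-values of these 3 loci were 0.378, 0.137 and 0.361.

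**Figure D5:**
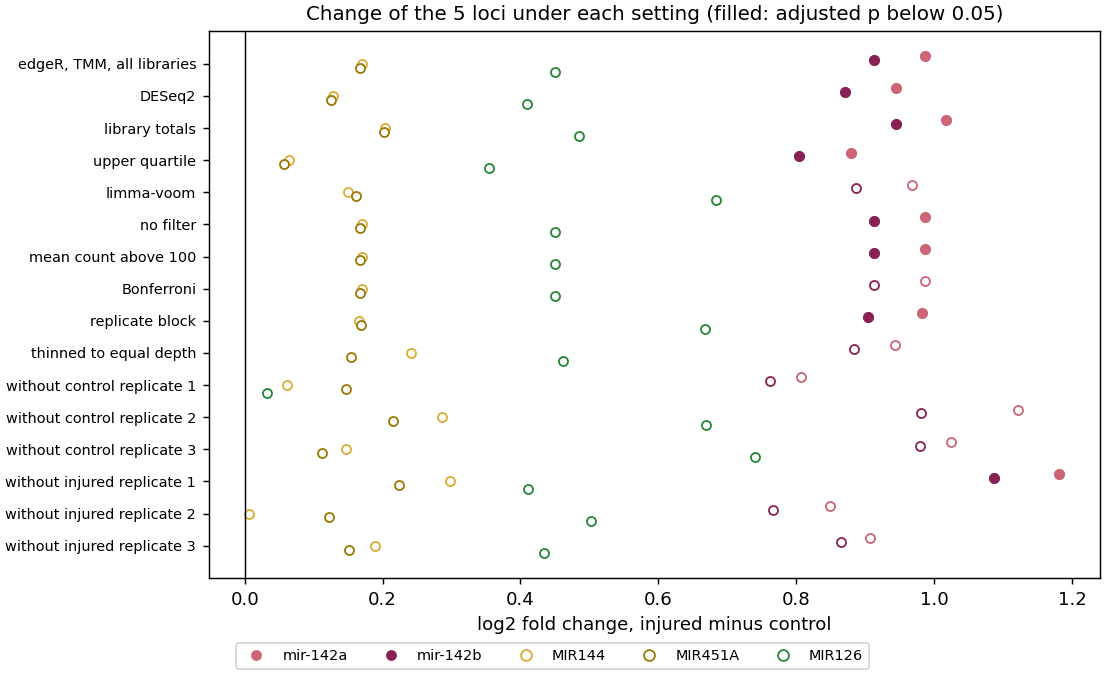
Log2 fold change of the 5 loci under each setting, 1 row per setting, with filled points where the adjusted p is below 0.05. Points of mir-142a and mir-142b lie between 0.76 and 1.18 and are filled in part, while MIR126 moves between 0.03 and 0.74 with the library left out.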

How the data were processed

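The deposited tables, 1 per library, hold unnormalised read counts for annotated miRNA loci, which the authors made by trimming adaptors with Cutadapt, aligning inserts of mature miRNA length to GRCz11 and counting with HTSeq in union mode. The study's methods name STAR and a small RNA kit, whereas the labels name BWA and a total RNA kit with size selection on a gel. Versions were not given in the sources used here. Alignments below a mapping quality limit were removed, so loci that share a mature sequence can be counted too low. Summary lines were left out; reads without a feature were 11.4% to 12.3% of each table. Gene symbols were looked up by identifier, and the names mir-142a and mir-142b from the study's own list. Mature sequences and coordinates in GRCz11 were not used here.

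The groups were compared with edgeR 4.0.16 in R 4.3.3 (quasi-likelihood test, two-sided, TMM scaling, group as the only term). Loci with a mean normalised count above 10 were tested, and p-values were adjusted by Benjamini-Hochberg over all of them. SE from edgeR is the absolute log2 fold change over the root of the test statistic. Ratios were tested with scipy 1.17.1. Alternatives were DESeq2 1.42.0, limma-voom (limma 3.58.1), other scalings and limits, Bonferroni adjustment, thinning, a replicate block and each library left out. The lists and the 5 loci were chosen with earlier results of these data known. Named loci are the 5, the listed loci of other cells and the 3 nearest by pattern. No pair of replicates was a duplicate (chi-square per degree of freedom at least 42.8). The fitting code was tested on simulated data.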

Additional observations from a re-analysis of the deposited data

How the results depend on the processing

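The number of loci called was 6 under Bonferroni adjustment, 31 by DESeq2 and 10 to 24 with 1 library left out (10 without control 1, control 3 or injured 3, and 14 without control 2), and that of the 5 loci was 0 under limma-voom, thinning and Bonferroni adjustment and 0 to 2 with 1 library left out (2 only without injured 1). The log2 fold changes that were not called were 0.97 and 0.89 (limma-voom), 0.94 and 0.88 (thinned) and 0.99 and 0.91 (Bonferroni) for mir-142a and mir-142b. With 1 library left out they ran from 0.81 to 1.18 and from 0.76 to 1.09, and the adjusted p over all settings from 0.000229 to 0.841 and from 0.000171 to 0.599. With upper-quartile scaling the median of all loci shifted by −0.11, and both miR-142 loci were still called. The log2 differences of 3 ratios changed sign. Erythrocyte to vessel gave 0.24 with both mir-126 loci and −0.95 to 0.11 with 1 library left out, leucocyte to vessel −0.042 to 0.74, and MIR144 to MIR451A 0.074 after thinning and −0.11 to 0.077. What made these values change between settings was not tested.

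The groups share replicate numbers. Deviations from group means correlated at 0.32, 0.12 and 0.08 for same-numbered libraries and at −0.20 to 0.064 for the others. Each same-numbered value was thus above all the others, but the lowest, 0.082, was close to the 0.064 of control 3 with injured 2. Deviations were centred within groups of 3 libraries, so these correlations depend on each other and cannot decide on a pairing. No label ties the numbers to a fish, so a pairing could not be settled, and the libraries were compared as unpaired. With a replicate block edgeR called 22 loci, both miR-142 loci among them, with log2 fold changes of 0.98 (SE 0.054) and 0.90 (SE 0.062). Depth limits the control libraries most.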

Other observations

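A list of 5 loci of miR-15a and miR-16, miRNAs that are abundant in blood cells but also made in brain, had 3 loci with reads, and none of these 3 was called. The list left out miR-15b, of the same family, whose loci dre-mir-15b (ENSDARG00000081182; log2 fold change 0.43; edgeR adjusted p = 0.0118) and MIR15B (ENSDARG00000081366; log2 fold change 0.61; edgeR adjusted p = 0.0134) were both called higher. The most abundant locus of the list, mir16b (ENSDARG00000081252), averaged 7282 RPM in control and 7792 RPM in injured libraries (log2 fold change 0.06, SE 0.07; edgeR adjusted p = 0.746). MIR16-2 (ENSDARG00000083213) averaged 50.3 and 75.0 RPM with groups that did not overlap (log2 fold change 0.53, SE 0.18; edgeR adjusted p = 0.115). MIR15A (ENSDARG00000080168) averaged 473 and 417 RPM, with the injured libraries all below the controls (log2 fold change −0.22, SE 0.07; edgeR adjusted p = 0.116). Unadjusted edgeR p-values of these 3 loci were 0.426, 0.0207 and 0.0217, and the other 2 loci of the list, mir16c and a second MIR15A locus, had 0 reads in each library.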
